A study of Mus musculus with 19 samples.

Results

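The genes described here are 10 receptors of mouse myeloid cells: Trem1, Trem2, Trem3, Treml2 and Clec5a, and the inhibitory receptors Lilrb3 (Pirb, PIR-B), Lilrb4 (Gp49b), Sirpa, Cd300lf and Clec4a2. They were found by gene name, or by an older synonym in the probe description, among the 27745 genes and transcripts named on the array. Of 41174 probes, 19 belonged to 9 of the 10 genes, and Treml2 was matched to no probe. Of these 19 probes, 18 were well above the local background in at least 2 of 18 RNA samples and were tested. Each gene is given by its probe with the highest mean signal, and the other probes are described separately.

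RNA came from blood leukocytes of male DBA/2 and B6 mice, 5 to 14 weeks of age, after intraperitoneal injection of CAWS, a water-soluble mannoprotein and beta-glucan fraction of Candida albicans, at 1 mg a day on 5 consecutive days. CAWS causes a lethal vasculitis in DBA/2 mice and a mild one in B6 mice, and the design asks how leukocyte mRNA levels differ between the strains over time. Samples were taken right after the last injection (0 w) and at 4 later times up to 9 w, which gave 10 groups of strain and week, 18 RNA samples and 19 single-color arrays. The DBA/2 groups held 2 samples at each of the 5 time points, the B6 groups held 2 at 0 w, 4 w and 8 w, and B6 2 w and B6 9 w held 1 each. The study sets 0 w right after the last injection, so 0 w is taken here as a treated state. The study also lists a dose without CAWS, and the sample titles state no dose. The later samples came from mice that had survived to that time.

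Trem1, Trem2, Trem3 and the lectin Clec5a (MDL-1) have short tails and signal through adaptors, mainly Tyrobp (DAP12), which carries an activating motif (ITAM) that recruits the kinase Syk. Lilrb3, Lilrb4, Sirpa, Cd300lf and Clec4a2 (DCIR) carry inhibitory motifs (ITIM) in their own tails, which recruit phosphatases such as SHP-1 and dampen signals from activating receptors on the same cell. Neutrophils, monocytes and macrophages carry most of these receptors, and Trem2 is best known from macrophages, osteoclasts and microglia.

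The RefSeq promoter table (GRCm38.p6) held 6 of the 10 genes, and 4 promoters of 300 bases around the start site are shown, those of the 3 activating receptors in the table and of the inhibitory receptor with the most matches to a myeloid motif. Capitals mark each match of the letters GAGGAA, or TTCCTC on the other strand, a core bound by ETS factors such as PU.1. Trem1 is at chr17:48232489-48232788 on the + strand, Trem2 at chr17:48346151-48346450 on the + strand, Clec5a at chr6:40585756-40586055 on the - strand, and Lilrb3 (Pirb) at chr7:3720333-3720632 on the - strand, each read 5′ to 3′ along the gene.
Trem1: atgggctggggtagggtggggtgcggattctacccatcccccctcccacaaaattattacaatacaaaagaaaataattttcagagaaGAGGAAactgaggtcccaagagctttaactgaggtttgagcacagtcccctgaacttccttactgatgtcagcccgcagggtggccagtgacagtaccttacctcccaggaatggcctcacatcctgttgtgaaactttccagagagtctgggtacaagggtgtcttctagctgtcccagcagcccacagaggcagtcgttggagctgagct
Trem2: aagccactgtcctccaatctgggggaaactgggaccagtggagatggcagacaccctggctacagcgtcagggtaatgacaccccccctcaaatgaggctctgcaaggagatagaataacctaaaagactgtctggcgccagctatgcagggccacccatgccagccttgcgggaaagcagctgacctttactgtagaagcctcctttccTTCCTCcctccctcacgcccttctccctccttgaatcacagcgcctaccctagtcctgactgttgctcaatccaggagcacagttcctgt
Clec5a: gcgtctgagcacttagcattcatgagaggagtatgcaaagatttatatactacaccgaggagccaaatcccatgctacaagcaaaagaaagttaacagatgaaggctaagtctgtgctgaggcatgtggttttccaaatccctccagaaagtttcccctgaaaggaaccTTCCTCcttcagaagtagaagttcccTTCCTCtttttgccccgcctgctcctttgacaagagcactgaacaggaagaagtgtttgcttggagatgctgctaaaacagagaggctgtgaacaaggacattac
Lilrb3: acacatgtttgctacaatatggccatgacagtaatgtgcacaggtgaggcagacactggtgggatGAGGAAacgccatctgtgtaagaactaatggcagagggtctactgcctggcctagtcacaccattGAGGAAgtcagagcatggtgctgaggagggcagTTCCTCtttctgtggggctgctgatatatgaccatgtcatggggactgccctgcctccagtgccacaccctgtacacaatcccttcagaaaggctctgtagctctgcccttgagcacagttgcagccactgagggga
The core was present once in Trem1 and Trem2, at 2 places in Clec5a and at 3 in Lilrb3. It was also present at 2 places in Cd300lf and absent from the letters of the Clec4a2 window, so 5 of 6 promoters held it, against 28.3% of 32851 mouse promoters of the same length. The C/EBP-type letters TTGCNNAA were in 1 of 6 (Trem2) and in 10.8% of all promoters, and the AP-1-type letters TGANTCA were in 2 of 6 (Trem2 and Clec4a2) and in 7.81%, both strands being searched for each. These matches describe letters only, and binding was not measured.

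Signals are given as log2 of the processed signal minus the 75th percentile of the array, so 0 is the brightness of that percentile and a negative value is a dimmer spot. The level of one probe cannot be set against that of another. Between 33.9 and 51.4% of the 43379 spots of an array were well above background, and replicate samples of a group differed by a median of 0.10 to 0.14 (absolute log2 difference), while 2 arrays of the same B6 0 w RNA, averaged here into 1 sample, differed by 0.0964. The label of DBA/2 2 w replicate 2 carries the words technical replicate. That sample differed from DBA/2 2 w replicate 1 by a median of 0.12, and if it was a second array of the same RNA, the error of that group covers handling only. The replicate pairs of the other groups, at 0.10 to 0.14, also lay close to the 0.0964 of the 2 arrays of the same RNA. How much of the variation between mice the errors cover was not tested. DBA/2 9 w replicate 2 had 1187 outlier spots, against 64 to 180 on the other arrays, and none was on the main probe of a receptor. Leukocytes were present by their markers, with median normalized log2 signals of 2.36 to 3.20 over 6 pan-leukocyte genes. Hepatocyte genes stood apart: the median of 9 tested hepatocyte markers was 0.25 to 0.48 in both B6 0 w and both B6 8 w samples and -7.70 to -5.78 in the other 14 samples. Their summed processed signal was 11601 to 12134 at B6 0 w and 11300 to 12276 at B6 8 w, against 323 to 902 elsewhere, counting the spots below background at their measured value. Of these markers, Ahsg and Tat were well above background in all 18 samples. Summed signals are not scaled between arrays and carry the brightness of each array. After scaling, the median change of the 9 markers was -0.91 at B6 8 w from B6 0 w, and 1 of 9 was called lower. Comparisons that use B6 0 w or B6 8 w therefore carry these hepatocyte transcripts on one or both sides, and their part in the results was not tested. The sizes of changes within DBA/2 mice, between strains at 4 w and of B6 9 w from B6 4 w do not use these samples. Their standard errors and tests do, since they come from one fit of all 18 samples. In whole-blood leukocyte RNA, fewer cells of a type and less RNA per cell cannot be told apart.

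In DBA/2 mice, mRNA levels of all 9 measured receptors were above both 0 w samples in each of the 8 later samples. The share of all probes with this pattern is not given here. At 2 w, 8 of 9 were called higher than at 0 w by limma with Benjamini-Hochberg adjustment over all probes (adjusted p under 0.05), against 7.51% of all probes tested, and their median change was 0.71 on the log2 scale against -0.06 for all probes. At 4 w 8 of 9 were called (7.16% of all probes), with a median of 1.46 against -0.09. At 8 w 8 of 9 were again called (9.95% of all probes), with a median of 1.94 against -0.17. At 9 w all 9 were called (13% of all probes), with a median of 1.37 against -0.03. Trem2 was the gene not called up to 8 w. These 4 comparisons share the DBA/2 0 w samples. The DBA/2 samples from 0 w to 8 w shared a slide within each replicate number, and all 54 within-slide changes of these genes were above 0, from 0.05 to 3.14. These changes reuse the 0 w sample of their replicate number, and the share of all probes above 0 is not given here. With the B6 0 w and B6 8 w samples left out of the fit, 31 of 36 combinations of gene and week were called in DBA/2 mice, against 33 with them. Normexp, another background correction, was made from the mean and background signals, with an offset of 50 added. With it 22 of 36 were called in DBA/2 mice. Shares of all probes called with normexp are not given here for single weeks or for levels between the strains.

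In B6 mice the receptors were called higher less evenly over the weeks. At 2 w, on 1 sample, 6 of 9 were called higher than at 0 w (4.77% of all probes), with a median change of 0.80 against 0.08 for all probes. Only 4 of 9 were called at 4 w (5.76% of all probes), with a median of 0.49 against -0.03. At 8 w all 9 were called (10.5% of all probes), with a median of 1.83 against -0.05. At 9 w, on 1 sample, 8 of 9 were called (4.18% of all probes), with a median of 1.28 against -0.05. All 4 comparisons use the B6 0 w samples, which hold hepatocyte transcripts, and the 8 w samples hold them too. Of the 18 changes that could be taken within a slide, 15 were above 0, from -0.40 to 1.54. All of these use B6 0 w replicate 1, and the share of all probes above 0 is not given here. With normexp background correction 6 of 36 combinations of gene and week were called in B6 mice, against 27 without it. Both B6 8 w samples were the highest B6 samples for every gene except Trem2, for which the 9 w sample was highest.

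**Figure D1:**
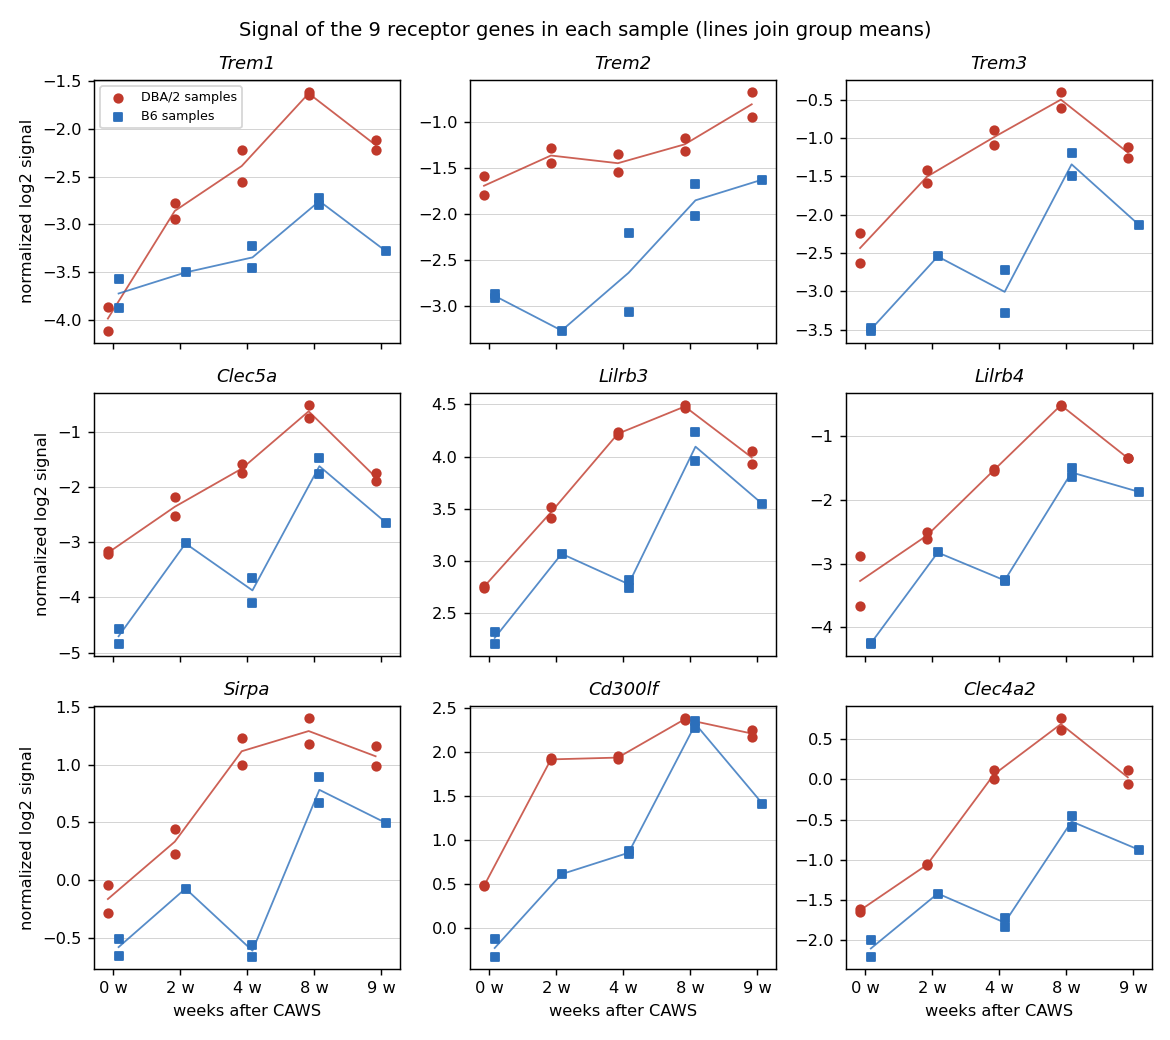
Normalized log2 signal of the 9 receptor genes in each sample (vertical axes, one panel per gene, each on its own scale) against weeks after CAWS (horizontal axis), with DBA/2 samples as circles and B6 samples as squares and lines joining group means. DBA/2 samples lie above B6 samples of the same week for all 9 genes from 2 w to 9 w and for 8 of 9 at 0 w. The share of all probes that separate in this way is not given, and strain and slide cannot be told apart here.

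The changes at 4 w and 8 w, the weeks with 2 samples in both strains, were also averaged into one combined change from 0 w. By it 8 of 9 receptors were called higher in DBA/2 mice (9.69% of all probes), with a median of 1.69 against -0.13 for all probes. In B6 mice 8 of 9 were likewise called higher (7.01% of all probes), with a median of 1.17 against -0.08. Trem2 was the exception in both strains. With normexp background correction 7 were called in DBA/2 mice, and Lilrb3 and Cd300lf, 2 of 9, in B6 mice. Over all probes, that setting called 556 for the combined DBA/2 change and 166 for the combined B6 change. Neutrophil markers were higher too: of 11 tested neutrophil genes, 10 were called higher in each strain, with medians of 2.07 in DBA/2 and 2.15 in B6 mice.

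Trem1, the receptor that amplifies inflammatory signals in neutrophils and monocytes, was measured by a probe at mm8 chr17:47710211-47710270. The DBA/2 samples read -3.86 and -4.11 at 0 w, -2.77 and -2.94 at 2 w, -2.23 and -2.55 at 4 w, -1.65 and -1.61 at 8 w, and -2.22 and -2.12 at 9 w. The B6 samples read -3.88 and -3.57 at 0 w, -3.50 at 2 w, -3.23 and -3.46 at 4 w, -2.79 and -2.72 at 8 w, and -3.28 at 9 w. The strains overlapped at 0 w, and at every later week the DBA/2 samples were higher. Trem1 rose in DBA/2 mice by 1.13 (SE 0.15, adjusted p = 0.00153) at 2 w and by 2.36 (SE 0.15, adjusted p = 6.39e-06) at 8 w, a 5.12-fold change. In B6 mice it rose at 8 w by 0.97 (SE 0.15, adjusted p = 0.00179) and did not pass the test at 2 w (0.22), 4 w (0.38) or 9 w (0.44). Its combined change in B6 mice, 0.67 (SE 0.13, adjusted p = 0.00838), was 0.52 with an adjusted p of 0.103 without B6 0 w replicate 1. With the slide as a block, the B6 changes at 4 w (0.59, adjusted p = 0.0148) and 9 w (0.74, adjusted p = 0.0242) passed it. With normexp background correction the change at 8 w in B6 mice was -0.15, and in DBA/2 mice the rises at 2 w (0.50) and 4 w (0.73, adjusted p = 0.576) and the combined rise (0.98, adjusted p = 0.0759) lost their calls. The B6 results also depended on which array stood for B6 0 w replicate 2. With its array 2 alone and no block, the change at 4 w was 0.59 (adjusted p = 0.0205) and that at 9 w 0.65. With its array 1 alone the combined change in B6 mice was 0.46 (adjusted p = 0.143). The spots of this probe are dim, with processed signals of 19.0 to 86.4 in B6 mice.

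A second Trem1 probe, at mm8 chr17:47711472-47711531, was well above background in 16 of 18 samples. Its signal in DBA/2 mice was -4.57 and -4.69 at 0 w, -3.00 and -2.99 at 2 w, -2.44 and -2.58 at 4 w, -1.93 and -2.02 at 8 w, and -2.76 and -2.80 at 9 w. B6 signals were -4.65 and -5.13 at 0 w, -4.26 at 2 w, -3.46 and -3.58 at 4 w, -2.66 and -2.86 at 8 w, and -2.70 at 9 w. Here the single B6 9 w sample was above both DBA/2 9 w samples, whereas it was below them by the first probe. Trem1 measured in this way rose in B6 mice at all 4 weeks, by 0.63 (adjusted p = 0.0491) at 2 w, 1.37 (adjusted p = 0.000324) at 4 w, 2.13 (adjusted p = 1.32e-05) at 8 w and 2.19 (adjusted p = 7.59e-05) at 9 w. Both probes rose in DBA/2 mice at every week, with 2.65 (adjusted p = 2.31e-06) at 8 w by the second. The transcripts that each probe covers were not resolved here, and a probe can bind the alleles of both strains unequally, which was not tested.

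**Figure D2:**
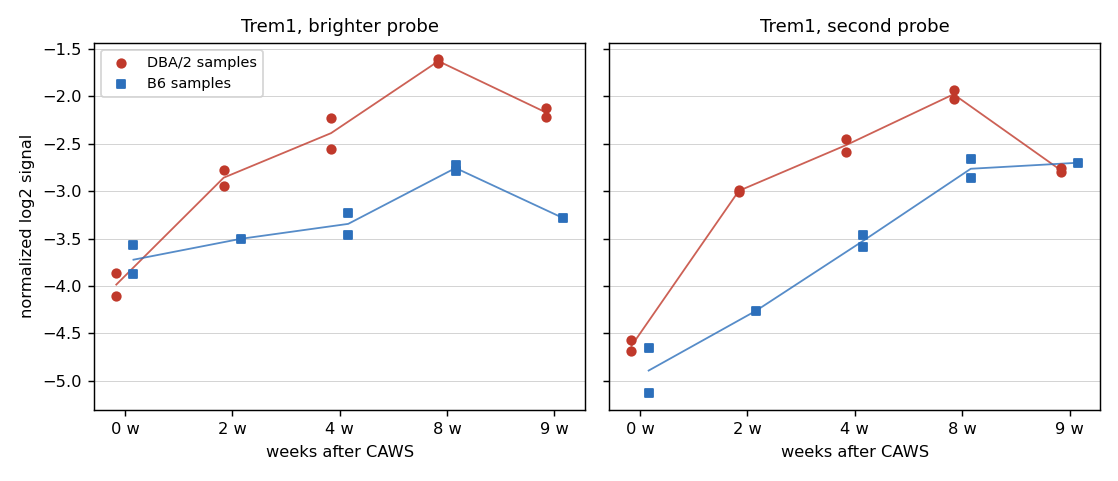
Normalized log2 signal (vertical axis) of the 2 Trem1 probes in each sample against weeks after CAWS (horizontal axis), circles for DBA/2 and squares for B6 samples, lines joining group means. By the brighter probe all DBA/2 samples are above the B6 samples from 2 w on, and by the second probe the single B6 9 w sample, at -2.70, is above both DBA/2 9 w samples.

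Trem3, a mouse relative of Trem1 that also signals through Tyrobp, lies close to it, with its probe at mm8 chr17:47724232-47724291. DBA/2 signals were -2.24 and -2.63 at 0 w, -1.42 and -1.59 at 2 w, -0.89 and -1.09 at 4 w, -0.40 and -0.60 at 8 w, and -1.11 and -1.27 at 9 w. For B6 mice the values were -3.51 and -3.49 at 0 w, -2.55 at 2 w, -2.73 and -3.29 at 4 w, -1.20 and -1.49 at 8 w, and -2.13 at 9 w. Every DBA/2 sample was above every B6 sample of its week. Trem3 rose in DBA/2 mice at all 4 weeks, by 0.93 (SE 0.20, adjusted p = 0.0138) at 2 w and 1.94 (SE 0.20, adjusted p = 0.000126) at 8 w. In B6 mice it rose at 2 w by 0.95 (adjusted p = 0.0332), at 8 w by 2.15 (SE 0.20, adjusted p = 8.22e-05) and at 9 w by 1.37 (adjusted p = 0.00827), and its 0.49 at 4 w did not pass the test. The call at 2 w rested on single samples: the adjusted p in DBA/2 mice was 0.1, 0.0841 and 0.0516 without DBA/2 0 w replicate 2, 2 w replicate 1 and 2 w replicate 2, and in B6 mice 0.102 and 0.101 without B6 0 w replicate 1 and replicate 2. Under normexp correction Trem3 was called at no week in B6 mice, with 0.22 at 2 w, 0.77 (adjusted p = 0.135) at 8 w and 0.26 (adjusted p = 0.67) at 9 w, and it lost its calls in DBA/2 mice at 2 w (0.69, adjusted p = 0.429) and 4 w (1.04, adjusted p = 0.105). With the replicate number as a block, its B6 4 w change (0.49, adjusted p = 0.0239) passed the test.

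Trem2, a lipid-binding receptor of macrophages, was measured at mm8 chr17:47817764-47817823 and had the smallest combined change of the 9 genes in each strain. Its signal in DBA/2 mice was -1.79 and -1.59 at 0 w, -1.28 and -1.45 at 2 w, -1.35 and -1.55 at 4 w, -1.17 and -1.31 at 8 w, and -0.94 and -0.67 at 9 w. Normalized signals of B6 mice were -2.86 and -2.91 at 0 w, -3.26 at 2 w, -3.07 and -2.21 at 4 w, -2.03 and -1.67 at 8 w, and -1.62 at 9 w. Signals of B6 2 w and of the first B6 4 w sample were below both B6 0 w samples, and the 2 B6 4 w samples differed more than any other pair for this gene. Trem2 rose in DBA/2 mice at 9 w by 0.88 (SE 0.25, adjusted p = 0.026), and its 0.33 at 2 w, 0.24 at 4 w and 0.45 at 8 w did not pass the test. In B6 mice it rose at 8 w by 1.04 (SE 0.25, adjusted p = 0.0157) and at 9 w by 1.26 (SE 0.30, adjusted p = 0.0319).

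The Trem2 calls rested on few samples. At 9 w in DBA/2 mice the adjusted p was 0.131, 0.0643 and 0.136 without DBA/2 0 w replicate 1, 0 w replicate 2 and 9 w replicate 2. For B6 8 w it was 0.0675, 0.0739 and 0.0999 without B6 0 w replicate 1, 0 w replicate 2 and 8 w replicate 2, and for B6 9 w it was 0.101 without either B6 0 w sample. Without B6 4 w replicate 1 the combined change in B6 mice was 0.86 (adjusted p = 0.00718), against 0.64 (adjusted p = 0.0786) with it. With the slide as a block the adjusted p was 0.064 at B6 8 w and 0.0725 at B6 9 w, and with normexp background correction these changes were 0.17 (adjusted p = 0.43) and 0.30 (adjusted p = 0.67).

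Clec5a, an activating lectin of neutrophils and monocytes paired with Tyrobp, was measured at mm8 chr6:40506625-40506684. Normalized signals of DBA/2 mice were -3.22 and -3.17 at 0 w, -2.19 and -2.53 at 2 w, -1.58 and -1.75 at 4 w, -0.51 and -0.75 at 8 w, and -1.74 and -1.90 at 9 w. Leukocytes of B6 mice gave -4.57 and -4.84 at 0 w, -3.02 at 2 w, -3.64 and -4.10 at 4 w, -1.48 and -1.77 at 8 w, and -2.65 at 9 w. Signals were lowest at B6 0 w, and only 1 of 3 arrays of that group was well above background. Clec5a rose in both strains at every week. At 8 w the rise was 2.56 (SE 0.19, adjusted p = 1.54e-05), 5.91-fold, in DBA/2 mice and 3.08 (SE 0.19, adjusted p = 6.83e-06), 8.46-fold, in B6 mice. No B6 week was called with normexp background correction, where the 8 w change was 0.65 (adjusted p = 0.194), the other weeks gave 0.08 to 0.31, and the combined change was 0.38 (adjusted p = 0.569). The DBA/2 calls at 2 w (0.49) and 4 w (0.86, adjusted p = 0.446) were lost too. Smaller rises lost their calls without single samples: DBA/2 2 w (0.83, adjusted p = 0.0175) had adjusted p of 0.0867, 0.0748 and 0.116 without DBA/2 0 w replicate 1, 0 w replicate 2 and 2 w replicate 1, and B6 4 w (0.83, adjusted p = 0.0181) had 0.116 and 0.114 without B6 0 w replicate 2 and 4 w replicate 1.

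Lilrb3, which encodes PIR-B, an inhibitory receptor of myeloid and B cells that binds MHC class I, was measured at mm8 chr7:3315643-3315702. Leukocytes of DBA/2 mice gave 2.77 and 2.74 at 0 w, 3.52 and 3.42 at 2 w, 4.23 and 4.21 at 4 w, 4.50 and 4.46 at 8 w, and 4.06 and 3.93 at 9 w. The B6 samples read 2.32 and 2.21 at 0 w, 3.07 at 2 w, 2.82 and 2.74 at 4 w, 4.23 and 3.96 at 8 w, and 3.55 at 9 w. Replicates lay close together, and every later sample of a strain was above both of its 0 w samples. Lilrb3 rose at every week in both strains, in DBA/2 mice by 1.46 (SE 0.10, adjusted p = 1.94e-05) at 4 w and 1.72 (SE 0.10, adjusted p = 3.65e-06) at 8 w, and in B6 mice by 0.51 (SE 0.10, adjusted p = 0.00969) at 4 w and 1.83 (SE 0.10, adjusted p = 3.79e-06) at 8 w. Without B6 0 w replicate 2 or B6 4 w replicate 1 the B6 4 w change had an adjusted p of 0.069 or 0.0614. Normexp correction removed the calls at DBA/2 2 w (0.77, adjusted p = 0.121), B6 2 w (0.77, adjusted p = 0.26) and B6 4 w (0.49, adjusted p = 0.796).

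Lilrb4, an inhibitory receptor of myeloid and mast cells, was measured by a probe whose match spans mm8 chr10:51181585-51182500 and whose accession list also holds the near-identical paralog Gp49a, so the signal may come from either gene. The DBA/2 samples read -3.66 and -2.88 at 0 w, -2.50 and -2.62 at 2 w, -1.55 and -1.52 at 4 w, -0.52 and -0.51 at 8 w, and -1.35 and -1.34 at 9 w. B6 signals were -4.26 and -4.25 at 0 w, -2.82 at 2 w, -3.26 and -3.27 at 4 w, -1.50 and -1.63 at 8 w, and -1.87 at 9 w. The pair of DBA/2 0 w samples stood far apart, and the other pairs lay close together. Lilrb4 rose at every week in both strains, with 2.76 (SE 0.19, adjusted p = 1.14e-05), 6.76-fold, at 8 w in DBA/2 mice and 2.68 (SE 0.19, adjusted p = 1.89e-05), 6.41-fold, at 8 w in B6 mice.

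Single samples decided the smaller Lilrb4 changes. At 2 w in DBA/2 mice its rise of 0.71 (adjusted p = 0.0372) was 0.33 (adjusted p = 0.0843) without DBA/2 0 w replicate 1, had adjusted p of 0.161 and 0.116 without DBA/2 2 w replicate 1 and replicate 2, and kept its size with adjusted p of 0.0515 to 0.0568 when any one sample of DBA/2 4 w or 8 w or of B6 0 w, 4 w or 8 w was left out. At 4 w in B6 mice (0.99, adjusted p = 0.00939) the adjusted p was 0.0566 and 0.0527 without B6 0 w replicate 1 and 4 w replicate 2. With the slide as a block the DBA/2 2 w change had an adjusted p of 0.0824. Under normexp Lilrb4 was called at no week in B6 mice, where 8 w gave 0.63 (adjusted p = 0.158), 9 w gave 0.58 (adjusted p = 0.67) and the earlier weeks gave 0.27 and 0.19, and it lost its calls at DBA/2 2 w (0.32) and DBA/2 4 w (0.97, adjusted p = 0.0774).

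Sirpa, the inhibitory receptor for CD47 on myeloid cells, was measured at mm8 chr2:129323574-129323633. DBA/2 signals were -0.04 and -0.28 at 0 w, 0.44 and 0.22 at 2 w, 1.23 and 1.00 at 4 w, 1.40 and 1.18 at 8 w, and 1.16 and 0.99 at 9 w. For B6 mice the values were -0.50 and -0.65 at 0 w, -0.07 at 2 w, -0.56 and -0.66 at 4 w, 0.90 and 0.67 at 8 w, and 0.49 at 9 w. Both B6 4 w samples lay at the level of B6 0 w, while the DBA/2 4 w samples were far above DBA/2 0 w. Sirpa rose in DBA/2 mice by 1.28 (SE 0.15, adjusted p = 0.000432) at 4 w and 1.45 (SE 0.15, adjusted p = 0.000105) at 8 w. In B6 mice its change was -0.03 (SE 0.15, adjusted p = 0.945) at 4 w, followed by a rise of 1.36 (SE 0.15, adjusted p = 0.000188) at 8 w and of 1.07 (adjusted p = 0.00575) at 9 w. The DBA/2 2 w change (0.50, adjusted p = 0.0498) was lost without any one sample of the other groups that hold 2, at adjusted p of 0.0548 to 0.0688, and without a sample of DBA/2 0 w or 2 w, at 0.0717 to 0.252. The combined change in B6 mice (0.66, adjusted p = 0.0071) had an adjusted p of 0.0759 without B6 0 w replicate 2. Normexp correction ended the calls at DBA/2 2 w (0.44, adjusted p = 0.448), B6 9 w (0.85, adjusted p = 0.189) and of the combined change in B6 mice (0.56, adjusted p = 0.144). The B6 2 w change passed the test with the replicate number (0.41, adjusted p = 0.00594) or the slide (0.44, adjusted p = 0.0121) as a block.

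Cd300lf (CLM-1), an inhibitory receptor for phospholipids on myeloid cells, was measured at mm8 chr11:114932309-114932368. In DBA/2 mice its signal was 0.47 and 0.48 at 0 w, 1.91 and 1.93 at 2 w, 1.95 and 1.92 at 4 w, 2.39 and 2.36 at 8 w, and 2.17 and 2.26 at 9 w. Normalized signals of B6 mice were -0.33 and -0.13 at 0 w, 0.61 at 2 w, 0.87 and 0.84 at 4 w, 2.36 and 2.28 at 8 w, and 1.42 at 9 w. Its signal in DBA/2 mice was near its later level by 2 w, whereas B6 samples reached the DBA/2 level only at 8 w. Cd300lf rose at every week in both strains, in DBA/2 mice by 1.44 (SE 0.08, adjusted p = 2.75e-05) at 2 w and 1.90 (SE 0.08, adjusted p = 5.15e-07) at 8 w, and in B6 mice by 0.84 (SE 0.10, adjusted p = 0.000496) at 2 w and 2.55 (SE 0.08, adjusted p = 2.02e-07), 5.86-fold, at 8 w. None of its calls against 0 w changed when any one sample was left out, and the same held for Clec4a2. The single sample of B6 2 w or of B6 9 w could not be left out of its own comparison. Cd300lf lost its B6 calls at 2 w (0.71, adjusted p = 0.33) and 4 w (0.89, adjusted p = 0.112) with normexp correction.

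Clec4a2, an inhibitory lectin of dendritic and myeloid cells, was measured at mm8 chr6:123106277-123106336. Normalized signals of DBA/2 mice were -1.65 and -1.61 at 0 w, -1.07 and -1.05 at 2 w, 0.12 and 0.01 at 4 w, 0.76 and 0.61 at 8 w, and 0.11 and -0.06 at 9 w. Leukocytes of B6 mice gave -2.0 and -2.21 at 0 w, -1.42 at 2 w, -1.73 and -1.83 at 4 w, -0.46 and -0.59 at 8 w, and -0.87 at 9 w. Replicates lay close together, and the gap between the strains was widest at 4 w. Clec4a2 rose in DBA/2 mice at every week, by 1.69 (SE 0.11, adjusted p = 1.06e-05) at 4 w and 2.32 (SE 0.11, adjusted p = 6.67e-07), 4.98-fold, at 8 w. In B6 mice it rose at 2 w by 0.68 (adjusted p = 0.00717), at 8 w by 1.58 (SE 0.11, adjusted p = 1.17e-05) and at 9 w by 1.23 (adjusted p = 0.000388), and its 0.32 at 4 w did not pass the test. That change did pass with the replicate number (0.32, adjusted p = 0.0175) or the slide (0.38, adjusted p = 0.0315) as a block. Its calls at DBA/2 2 w (0.41, adjusted p = 0.407), B6 2 w (0.37), B6 9 w (0.65, adjusted p = 0.36) and of the combined change in B6 mice (0.57, adjusted p = 0.0906) were lost with normexp correction.

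Levels of the receptors were higher in DBA/2 than in B6 mice at most weeks. At 4 w hepatocyte markers were low in both strains, with 2 of 9 called higher in DBA/2 than in B6 mice. There all 9 receptors were called higher in DBA/2 mice (19.6% of all probes). Their median difference was 1.73 against 0.08 for all probes. Clec5a differed by 2.21 (SE 0.19, adjusted p = 2.12e-05), 4.61-fold, Trem3 by 2.02 (SE 0.20, adjusted p = 5.5e-05) and Clec4a2 by 1.84 (SE 0.11, adjusted p = 1.57e-06). The smallest difference was that of Trem1, 0.96 (SE 0.15, adjusted p = 0.00109). Under normexp correction the differences at 4 w of Trem1 (0.03, adjusted p = 0.94), Trem2 (0.37, adjusted p = 0.277), Trem3 (0.93, adjusted p = 0.0553), Clec5a (0.60, adjusted p = 0.3) and Lilrb4 (0.56, adjusted p = 0.185) lost their calls. At 0 w 7 of 9 were called higher (17.8% of all probes), with a median of 0.71 against 0.09, and Trem1 (-0.26, adjusted p = 0.234) and Sirpa (0.42, adjusted p = 0.0551) were not. Clec5a (1.51), Trem2 (1.20) and Trem3 (1.06) differed most at 0 w. At 8 w 7 of 9 were called higher (11% of all probes), with a median of 0.84 against -0.01, and Cd300lf (0.06, adjusted p = 0.68) and Trem2 (0.61, adjusted p = 0.109) were not. Averaged over the 3 weeks shown all 9 were called higher (24.4% of all probes), from 0.61 for Trem1 to 1.57 for Clec5a, with a median of 1.00 against 0.07, and with normexp background correction 6 of 9 were. No slide held both strains at one week, so strain and slide cannot be told apart in these levels.

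**Figure D3:**
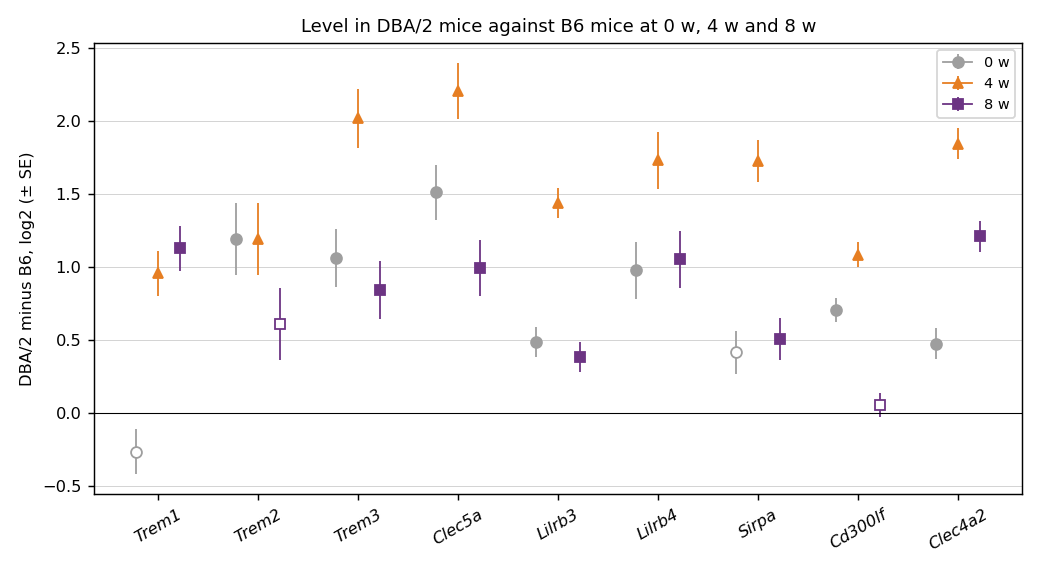
Difference in normalized log2 signal between DBA/2 and B6 mice (vertical axis, DBA/2 minus B6, with standard errors from the limma fit) for each of the 9 genes (horizontal axis) at 0 w, 4 w and 8 w, filled symbols marking an adjusted p under 0.05. All 9 differences at 4 w are filled, from 0.96 to 2.21, and Trem1 at 0 w is the single difference below 0.

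The difference between the strains in their change from 0 w was tested as an interaction. For the combined change, 3 of 9 receptors rose more in DBA/2 than in B6 mice (6.25% of all probes), and the median difference was 0.41 against -0.03 for all probes. These were Trem1 (1.30, SE 0.19, adjusted p = 0.00198), Clec4a2 (1.05, SE 0.13, adjusted p = 0.000854) and Sirpa (0.70, SE 0.18, adjusted p = 0.0329). Trem1 rose by 1.98 in DBA/2 and 0.67 in B6 mice, Clec4a2 by 2.00 and 0.95, and Sirpa by 1.37 and 0.66. The differences of Lilrb3 (0.42, SE 0.13, adjusted p = 0.0582), Lilrb4 (0.41, SE 0.24), Trem3 (0.37, SE 0.25), Clec5a (0.09, SE 0.23), Cd300lf (-0.14, SE 0.10) and Trem2 (-0.30, SE 0.30) did not pass the test. Lilrb3 passed it with the replicate number as a block (0.42, adjusted p = 0.0135), which is also the day of scanning, and with the slide as a block (0.44, adjusted p = 0.0169). The comparison rests on B6 0 w and B6 8 w, which hold hepatocyte transcripts.

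The same test was made at each week. At 2 w Trem1 (0.91, adjusted p = 0.0338) and Cd300lf (0.60, adjusted p = 0.0151) rose more in DBA/2 mice, 2 of 9 against 7.88% of all probes. At 4 w 4 of 9 did (7.04% of all probes): Clec4a2 (1.37, SE 0.15, adjusted p = 0.000395), Sirpa (1.31, SE 0.21, adjusted p = 0.00327), Trem1 (1.22, SE 0.22, adjusted p = 0.00596) and Lilrb3 (0.95, SE 0.14, adjusted p = 0.0027). At 8 w Trem1 (1.39, adjusted p = 0.0025) and Clec4a2 (0.74, adjusted p = 0.00947) did (7.09% of all probes), while Cd300lf rose less in DBA/2 than in B6 mice (-0.65, SE 0.12, adjusted p = 0.00552), the 1 gene called in that direction against 9.38% of all probes. Sirpa differed by 0.09 and Lilrb3 by -0.11 at 8 w. At 9 w Trem1 was the 1 gene of 9 called (1.38, SE 0.24, adjusted p = 0.0071), against 6.7% of all probes.

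The size of the Trem1 difference depended on the probe. By the second probe the difference in the combined change was 0.64 (SE 0.18, adjusted p = 0.0474), with 1.00 (adjusted p = 0.018) at 2 w, 0.75 (adjusted p = 0.0473) at 4 w, 0.52 (adjusted p = 0.123) at 8 w and -0.34 (adjusted p = 0.406) at 9 w. With normexp background correction the main Trem1 probe gave 0.98 (adjusted p = 0.606). Sirpa kept a difference of 0.58 to 0.78 but lost its call without any one of 8 samples, with adjusted p of 0.136 without DBA/2 0 w replicate 2, 0.0602 without DBA/2 4 w replicate 1, 0.0631 without DBA/2 8 w replicate 1, 0.129 and 0.0647 without B6 0 w replicate 1 and 2, 0.0508 and 0.0659 without B6 4 w replicate 1 and 2, and 0.0601 without B6 8 w replicate 2. Lilrb3 gained a call (0.49, adjusted p = 0.0231) without B6 8 w replicate 1, and Lilrb4 (0.80, adjusted p = 0.00462) without DBA/2 0 w replicate 2.

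**Figure D4:**
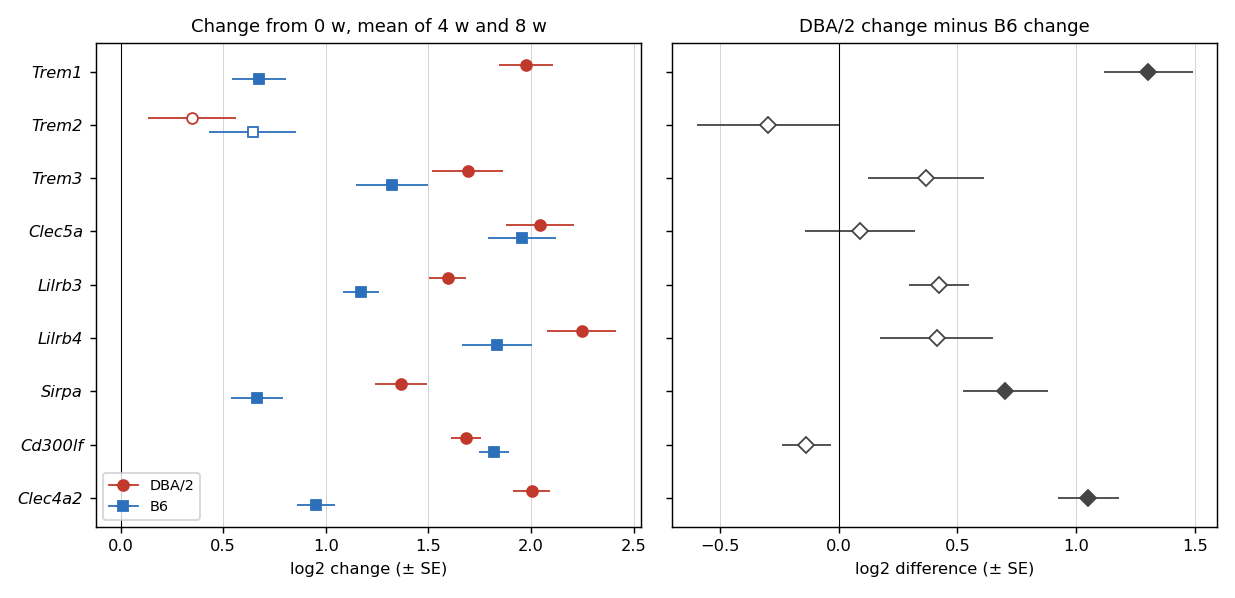
Left, combined log2 change from 0 w (average of 4 w and 8 w) in DBA/2 mice (circles) and B6 mice (squares), and right, the DBA/2 change minus the B6 change (diamonds), for each of the 9 genes (vertical axis), with standard errors from the limma fit and filled symbols for an adjusted p under 0.05. Trem1, Sirpa and Clec4a2 are the 3 filled symbols on the right, at 1.30, 0.70 and 1.05.

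B6 9 w was also compared with B6 4 w, since hepatocyte markers were low in both groups. This comparison was chosen after the data were seen. In the single B6 9 w sample 6 of 9 receptors were called higher than at 4 w (3.21% of all probes), with a median change of 0.91 against 0.04 for all probes. These were Lilrb4 (1.39, SE 0.24, adjusted p = 0.0125), Clec5a (1.22, SE 0.23, adjusted p = 0.0191), Sirpa (1.10, SE 0.18, adjusted p = 0.0105), Clec4a2 (0.91, SE 0.13, adjusted p = 0.00606), Lilrb3 (0.77, SE 0.13, adjusted p = 0.0106) and Cd300lf (0.56, SE 0.10, adjusted p = 0.0164). Trem2 (1.01, adjusted p = 0.0914), Trem3 (0.88, adjusted p = 0.0739) and Trem1 (0.06, adjusted p = 0.898) did not pass the test, and the second Trem1 probe gave 0.82 (adjusted p = 0.031). In DBA/2 mice limma called 0 of 9 higher at 9 w than at 4 w (6.66% of all probes), with a median of -0.04. Trem2 (0.64, unadjusted p = 0.028) and Cd300lf (0.27, unadjusted p = 0.00907) were below an unadjusted p of 0.05. At 9 w against 4 w in B6 mice, the median change was 0.59 for neutrophil, 0.89 for tissue macrophage and 0.35 for monocyte markers. In DBA/2 mice these medians were -0.03, -0.48 and 0.05. There 1 of 11 neutrophil markers was called higher and 1 lower, and 3 of 10 tissue macrophage and 2 of 11 monocyte markers lower. The part of these markers in the receptor changes was not tested.

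The remaining probes gave the following. The second Lilrb3 probe overlaps the first on the genome (mm8 chr7:3315633-3315692) and rose by 1.58 in DBA/2 and 1.27 in B6 mice in its combined change. A second Cd300lf probe rose by 1.51 (SE 0.19) and 1.81 (SE 0.19). Of the other Sirpa probes, the one at mm8 chr2:129322517-129322576, well above background in all 18 samples, rose by 0.81 (SE 0.16, adjusted p = 0.00575) in DBA/2 and 0.61 (SE 0.16, adjusted p = 0.0313) in B6 mice, with a strain difference of 0.20 (SE 0.23, adjusted p = 0.688). The third Sirpa probe was well above background in 13 samples and on no array of B6 0 w or B6 4 w. The strain difference of Sirpa was thus called by the main probe and not by the second, and the third gives no estimate of it.

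A dim Clec4a2 probe exceeded background on no 0 w array, and its level at 8 w was at least 6.57-fold higher than at 0 w in DBA/2 mice and at least 3.48-fold higher in B6 mice, the dim group being set at the lowest signal measured well above background on each array or at its own signal where higher. By the same bound it was at least 4.03-fold higher in DBA/2 than in B6 mice at 4 w. The third Sirpa probe was likewise at least 2.96-fold higher at B6 8 w than at B6 0 w. The third Clec4a2 probe was well above background in no sample. A second Trem2 probe was well above background in 9 samples and on no array of B6 0 w or B6 4 w, so no change in B6 mice is given for it. The other Clec5a probes were well above background in 8 and 3 samples and on no array of B6 0 w or B6 8 w, so no change in B6 mice is given for them. The first of them gave -0.95 (SE 0.55, adjusted p = 0.282) in DBA/2 mice, where it was well above background in both 0 w samples and in 1 sample each at 4 w and 8 w. With the mean of each gene's probes in place of the brightest probe, the combined change of Clec5a was 0.83 (adjusted p = 0.104) in DBA/2 and 0.95 (adjusted p = 0.0867) in B6 mice, with these dim spots entering at their measured values.

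Neutrophil markers were higher than at 0 w in the same groups, and their part in the receptor changes was not tested. The summed processed signal of the 11 tested neutrophil markers was 51323 to 51439 at 0 w, 109178 to 120481 at 2 w, 161223 to 176139 at 4 w, 292818 to 343540 at 8 w and 100676 to 107759 at 9 w in DBA/2 mice. In B6 mice it was 15405 to 15781 at 0 w, 46418 at 2 w, 39796 to 40831 at 4 w, 231422 to 242911 at 8 w and 83568 at 9 w. After scaling, their median change from 0 w was largest at 8 w, 2.53 in DBA/2 and 2.93 in B6 mice. The defining marker Ly6g was not matched to a probe, and Elane was well above background in no sample. In the strain difference of the combined change, 2 of 11 neutrophil markers were called higher and 1 lower, with a median of 0.11.

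Monocyte and macrophage markers differed between the strains. Of 11 monocyte markers 8 were called higher in DBA/2 mice by the combined change (median 1.07), 3 higher and 1 lower in B6 mice (median 0.21), and 6 higher and 1 lower in the strain difference (median 0.78). Their summed signal was 51357 to 53966 at DBA/2 0 w, 53773 to 60704 at 2 w, 95553 to 102388 at 4 w, 96347 to 113271 at 8 w and 78261 to 78540 at 9 w. The B6 sums were 36910 to 40685 at 0 w, 28794 at 2 w, 43786 to 44205 at 4 w, 105488 to 120295 at 8 w and 75178 at 9 w. After scaling, 6 of 11 were called higher at B6 8 w, with a median change of 0.46. Of 10 tested tissue macrophage markers 7 were called higher in DBA/2 mice (median 1.5), 2 higher and 4 lower in B6 mice (median -0.72), and 6 higher in the strain difference (median 1.83). The macrophage sums were 1114 to 1590 at DBA/2 0 w, 1391 to 1745 at 2 w, 2542 to 2830 at 4 w, 2142 to 2236 at 8 w and 1250 to 1624 at 9 w. In B6 mice they were 779 to 845 at 0 w, 594 at 2 w, 504 to 576 at 4 w, 1698 to 1814 at 8 w and 1233 at 9 w. After scaling, 3 of 10 were called higher and 3 lower at B6 8 w, with a median change of -0.22. Vcam1 was well above background in 0 samples and Mrc1 in 1, so neither was tested.

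Of 10 T cell markers 5 were called lower in DBA/2 and 4 in B6 mice by the combined change. Of 9 B cell markers 6 were called lower in DBA/2 mice, and of 7 NK cell markers 5 were called higher there and 6 lower in B6 mice. All 6 platelet markers were called higher at DBA/2 2 w and 9 w, and all 6 lower in the single B6 2 w sample, with a median of -1.5. All 5 erythroid markers were called lower at B6 8 w (median -1.03) and higher at DBA/2 9 w (median 0.84). The shares of all probes called lower in the comparisons of the marker lists are not given here. The part of these lists in the receptor changes was not tested. Over the 18 samples, Pearson's r with the median of the neutrophil list ran from 0.706 for Trem2 to 0.955 for Clec5a, as a description of samples that share strains, weeks and slides. With the monocyte list it ran from 0.272 for Trem2 to 0.791 for Trem1. Within the DBA/2 samples alone, r with the monocyte list was above that with the neutrophil list for every gene except Cd300lf, with 0.984 against 0.825 for Clec4a2 and 0.941 against 0.764 for Sirpa. Within the B6 samples alone r with the neutrophil list was the higher for all 9 genes, with 0.929 against 0.623 for Trem1 and 0.915 against 0.914 for Sirpa. Other lists gave values as far from 0. In DBA/2 samples Trem2 had r of 0.916 with the erythroid and 0.711 with the platelet list, against 0.573 with the monocyte list. In B6 samples r with the erythroid list ran from -0.92 for Sirpa to -0.792 for Trem2.

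**Figure D5:**
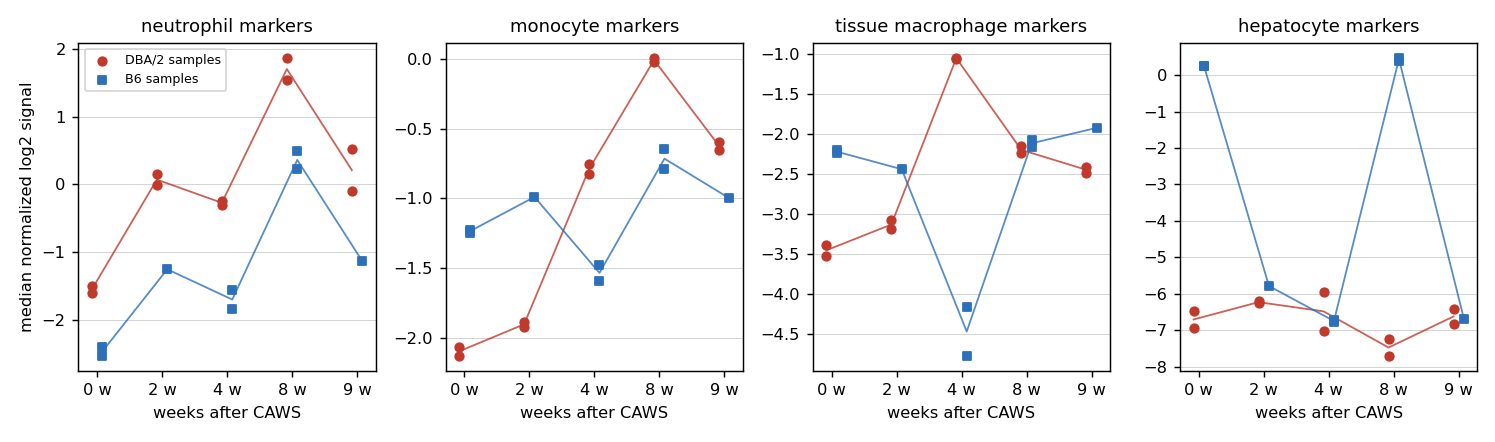
Median normalized log2 signal of 4 marker lists (vertical axes, each panel on its own scale) in each sample against weeks after CAWS (horizontal axis), circles for DBA/2 and squares for B6 samples, lines joining group means. The neutrophil median runs from -2.53 to 1.87, and the hepatocyte median is above 0 in the 4 samples of B6 0 w and B6 8 w and at or below -5.78 in the other samples.

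Among the signalling partners, 8 of 13 tested adaptor and ITAM pathway genes were called higher and 2 lower in DBA/2 mice by the combined change, and 7 higher and 0 lower in B6 mice (medians 0.33 and 0.23). Tyrobp, the adaptor of Trem1, Trem2, Trem3 and Clec5a, rose by 1.60 (SE 0.07, adjusted p = 4.87e-07) in DBA/2 and 0.80 (SE 0.07, adjusted p = 8.2e-05) in B6 mice, and the strain difference of 0.81 (SE 0.10, adjusted p = 0.000808) passed the test. Fcer1g, the related adaptor of Fc receptors, rose by 1.19 and 0.70, with a strain difference of 0.49 (adjusted p = 0.0128). The kinase Syk rose in DBA/2 mice by 0.32 (adjusted p = 0.00827) and gave -0.10 (adjusted p = 0.399) in B6 mice. Malt1 (-0.90) and Btk (-0.24) fell in DBA/2 mice, and Card9 was not matched to a probe.

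Of the 3 phosphatases that inhibitory receptors recruit, 1 was called higher in each strain. Ptpn6, which encodes SHP-1, rose in DBA/2 mice by 0.45 (SE 0.08, adjusted p = 0.00225) and gave 0.04 (adjusted p = 0.786) in B6 mice. Ptpn11 (SHP-2) rose in B6 mice by 0.40 (adjusted p = 0.0264), and Inpp5d (SHIP-1) gave 0.02 (adjusted p = 0.898) in DBA/2 and -0.03 (adjusted p = 0.886) in B6 mice. Of 6 genes for ligands, 3 were called higher in DBA/2 mice, and 3 higher and 1 lower in B6 mice. Pglyrp1, a neutrophil granule protein that binds Trem1, rose by 1.47 (SE 0.13, adjusted p = 5.65e-05) in DBA/2 and 0.93 (SE 0.13, adjusted p = 0.00143) in B6 mice. Cd47, the ligand of Sirpa, gave 0.13 (adjusted p = 0.286) in DBA/2 mice and rose by 0.42 (adjusted p = 0.0057) in B6 mice. Apoe, a lipid carrier bound by Trem2 and made in large amounts by liver, rose by 0.96 in DBA/2 mice and fell by 2.07 in B6 mice, where the median of the hepatocyte markers fell by 3.49 by the same measure.

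Related receptors of the same families were counted in the same way. Of 28 genes listed, 22 were tested: 17 were called higher and 0 lower in DBA/2 mice by the combined change (median 1.38), 11 higher and 0 lower in B6 mice (median 0.82), and 9 higher in the strain difference (median 0.53). By week, 1 was called lower at each of DBA/2 2 w, B6 2 w and B6 8 w, and 2 at B6 4 w. The activating relative of Sirpa, Sirpb1a, rose by 1.84 and 1.34, and the fungal-glycan lectins Clec4e (Mincle) and Clec7a (Dectin-1) by 2.69 and 1.82 and by 1.94 and 1.71, each in DBA/2 and B6 mice. The inhibitory receptor Pilra rose by 1.93 and 1.03 and its activating partner Pilrb1 by 1.54 and 0.57. Treml1, a receptor of platelets, rose by 0.71 and 0.75, and Treml4 rose by 0.70 in DBA/2 mice and gave -0.23 (adjusted p = 0.129) in B6 mice. This list was chosen with earlier results of these data known.

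Among each other, the 9 receptors had Pearson's r over the 18 samples from 0.65 (Trem1 with Trem2) to 0.981 (Trem3 with Clec5a). Measured as r over the 18 samples, the genes closest to Trem3 were Pla2g7 and Clec7a (both 0.989), and Ppt1 (0.987). Those closest to Clec5a were the formyl peptide receptor Fpr2 (0.984), Bst1 (0.982) and Trem3 (0.981). For Trem1 they were Pira1 (0.955), Nfil3 (0.953) and Anxa1 (0.949), and for Trem2 Khdc3 (0.945), Cnot7 (0.938) and Pfn1 (0.935). For Lilrb3 they were Entpd1, Sirpb1a and Mcemp1 (each 0.988), and for Lilrb4 Sirpb1a (0.976), Pirb (0.972) and S100a6 (0.969). Emilin2 and Cers6 (both 0.984) were among the genes closest to Sirpa. Cd300lf was closest to Gsdme (0.982), Fndc3b (0.98) and Cxcr2 (0.979), and Clec4a2 to Fcgr3 (0.985), Cd300c2 (0.978) and Sirpb1a (0.977). The samples behind these values share strains, weeks and slides.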

How the data were processed

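Leukocyte RNA from mouse blood was labelled with Cy3 and hybridised to Agilent whole mouse genome arrays. Per the file headers and labels, spot intensity was extracted with Agilent Feature Extraction 9.5.3.1, and probe positions are given on mm8. The deposited processed signal intensity is background-subtracted by the authors' scanner software and not scaled between arrays. The series' deposited value table of signal intensity equals it (largest relative deviation 2.41e-07). Control spots and outlier spots were left out, log2 was taken and the 75th percentile of each array over 12120 probes well above background on all 19 arrays was subtracted. The 2 arrays of B6 0 w replicate 2 were averaged. Probe names were taken through RefSeq accessions (24375 probes), symbols (6301) or synonyms (2426), and otherwise as in the files (8072).

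Probes that were well above background in 2 or more samples (22976) were fitted with limma 3.58.1 (R 4.3.3), with one mean for each of 10 groups (8 residual degrees of freedom), eBayes and Benjamini-Hochberg adjustment over all probes, and calls were made at an adjusted p under 0.05. The study's methods name no test. Groups of 1 sample were assumed to vary like the others. The fit was tested on simulated data. With 200 probes changed by 2-fold or 4-fold, 132 were recovered for the combined DBA/2 change, beside 7 false calls, and 101 for its strain difference, beside 6 false calls. All 9 measured members were named by the brightest probe. The members, marker lists and pathway lists were chosen with earlier results of these data known. Python 3.11.15 and matplotlib 3.10.9 were used for tables and figures. Some items are not reported here. The alternatives covered background correction, scaling, the floor, the filter on dim probes, blocks and left-out samples. The small number of arrays limits the precision.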

Additional observations from a re-analysis of the deposited data

Results flagged for a closer look

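The change from 0 w over the mean of 4 w and 8 w differed between the strains by limma's interaction test for 3 receptors, each rising more in DBA/2 mice. The difference was 1.30 on the log2 scale for Trem1, 0.70 for Sirpa and 1.05 for Clec4a2. Groups of 1 or 2 samples were too small to look for a sample far from the others.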

How the results depend on the processing

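Normexp background correction changed most. The 8 members called in B6 mice over the mean of 4 w and 8 w became 2, the 27 calls over gene and week in B6 mice became 6, and the 3 members called in the strain difference became 1 (Clec4a2, 1.09). This setting adds an offset of 50 to each corrected signal, and a constant added before log2 makes changes between dim spots smaller. The part of the offset in the lost calls was not tested. The DBA/2 counts became 7 (from 8) and 22 (from 33), and the count between strains 6 (from 9). Calls over all probes fell too. With quantile normalization 4623 probes were called for the combined DBA/2 change, 3163 for the combined B6 change and 2770 in the strain difference. Under normexp these were 556, 166 and 87. Of 117 single values under it, 68 kept their call, 47 lost it and 2 changed sign: Trem1 at B6 8 w was -0.15 and Trem1 over the B6 mean of 4 w and 8 w was -0.0042. It moved the median of all probes to -0.33 in B6 mice, -0.09 in DBA/2 mice and 0.23 in the strain difference. Scaling to pan-leukocyte genes moved these medians to -0.21, -0.41 and -0.18 and kept every direction. No other setting turned the sign of a called value. Leaving out 1 sample gave 22 to 27 calls in B6 and 29 to 33 in DBA/2 mice over the weeks, 7 to 9 and 8 over the mean of 4 w and 8 w, 9 between strains, and 2 to 4 in the strain difference. All replicate 1 arrays were scanned on one day and all replicate 2 arrays on another, on separate slides, so the replicate number also stands for the day of scanning. Same-numbered samples of different groups were not shown to be pairs. Their deviations had r of -0.00858 to 0.458, with a median of 0.0818, 13 of 28 over 0.1 and 1 of 28 under 0. A deviation shared by the samples of a scan day was not tested, and the main fit holds no block. With the replicate number as a block, the strain difference gave 4 calls, B6 mice 30 over the weeks and DBA/2 mice 33. With the slide as a block, B6 mice gave 29 and the strain difference 4, while DBA/2 9 w against 0 w and the levels between strains could not be fitted. Each strain fitted alone gave 18 calls in B6 and 31 in DBA/2 mice and no strain comparison. The Sirpa strain difference also lost its call with outlier spots kept (adjusted p = 0.0863), in the deposited value table (adjusted p = 0.0863), with no filter (adjusted p = 0.128) and with the mean of the gene's probes (0.27, adjusted p = 0.666). Dim spots limit Trem1, Clec5a and Lilrb4 in B6 mice at 0 w.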
